A study of Mus musculus with 4 samples.

Results

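The cells described here are fibroblast-like stromal cells with low Cxcl12 from mouse bone marrow, 432 of the 711 stromal-sort cells that passed the filters on cells and of 12355 barcodes in the whole series. They were chosen by measured values: at least 3 molecules of Dcn (decorin, a collagen-binding proteoglycan), under 1% of the cell's molecules from Cxcl12, and under 1% from 5 cartilage-associated genes together (Col2a1, Col9a1, Col9a2, Col11a2 and Msmp). Molecules were counted as unique molecular identifiers (UMIs). The STAT5 knockout (STAT5 KO) stromal library gave 165 such cells and the control stromal library gave 267. Both groups of mice carry 1 Vav1-Cre allele (Vav1-Cre/+). The STAT5 KO mice also carry floxed Stat5a and Stat5b (STAT5abfl/fl), and the control mice carry intact genes (STAT5ab+/+). All mice of the stromal sort were 6 to 8 weeks old. Vav1-Cre is active in blood cells, so the STAT5 KO stromal cells are cells from mice whose blood cells were the target of the deletion. Marrow was digested with collagenase, and the sort took cells negative for CD45 and CD71, negative or low for Ter119, and positive for Sca-1 and CD140a. There was 1 library for each of 4 groups (stromal and stem-cell sorts, each STAT5 KO and control), so a difference between STAT5 KO and control is a difference between these libraries. How many mice gave each stromal library is not given in the sources used here, so no spread between mice was measured and no test was made.

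Fibroblasts build and remodel the collagen-rich matrix around vessels, bone surfaces, tendons and joints. In bone marrow preparations they stand apart from the CXCL12-abundant reticular cells, which make the chemokine CXCL12 and the cytokine stem cell factor and thereby hold blood stem cells in the marrow. Fibroblasts that carry Sca-1 (encoded by Ly6a) and CD34 are found in the outer layer of vessels of many tissues and are known as adventitial or progenitor-like fibroblasts. Other fibroblasts of bone cover its surface or continue into tendon and ligament.

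The 165 STAT5 KO cells were 60.2% of that library's passing cells (exact Clopper-Pearson 95% interval 54.2 to 66.1) and the 267 control cells were 61.1% (56.4 to 65.7). They held 551624 and 1022525 UMIs. The median cell had 3230 UMIs and 1424 genes in STAT5 KO, and 3701 UMIs and 1562 genes in control, over ranges of 946 to 7369 and 1046 to 10915 UMIs. Mitochondrial genes took a median of 2.78% and 2.32% of a cell's UMIs. Of the chosen cells, 3 STAT5 KO and 2 control barcodes were also present in the other stromal library, with fewer UMIs there, and 107 and 122 were also present in a stem-cell library, with more UMIs there for 3 and 1. Intervals in what follows cover counting error only.

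The rule separated the cells with a gap for Cxcl12 but not for the other genes. Inside it, the highest Cxcl12 share was 0.471% in STAT5 KO and 0.529% in control. Among CXCL12-abundant cells (Cxcl12 at least 1%), the lowest share was 1.13% and 1.18%. For the cartilage genes the highest share inside was 0.995% and 0.911%, and the lowest outside was 1.12% and 1.05%, so the border with the chondrocyte-like cells is a point on a continuous range. For Dcn, 4 cells of each library lay at 3 to 5 UMIs, and 6 STAT5 KO and 10 control cells lay outside at 1 or 2 UMIs. The median chosen cell had 63 Dcn UMIs in STAT5 KO and 69 in control, and 104 and 164 of the chosen cells had no Cxcl12 UMI.

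**Figure D1:**
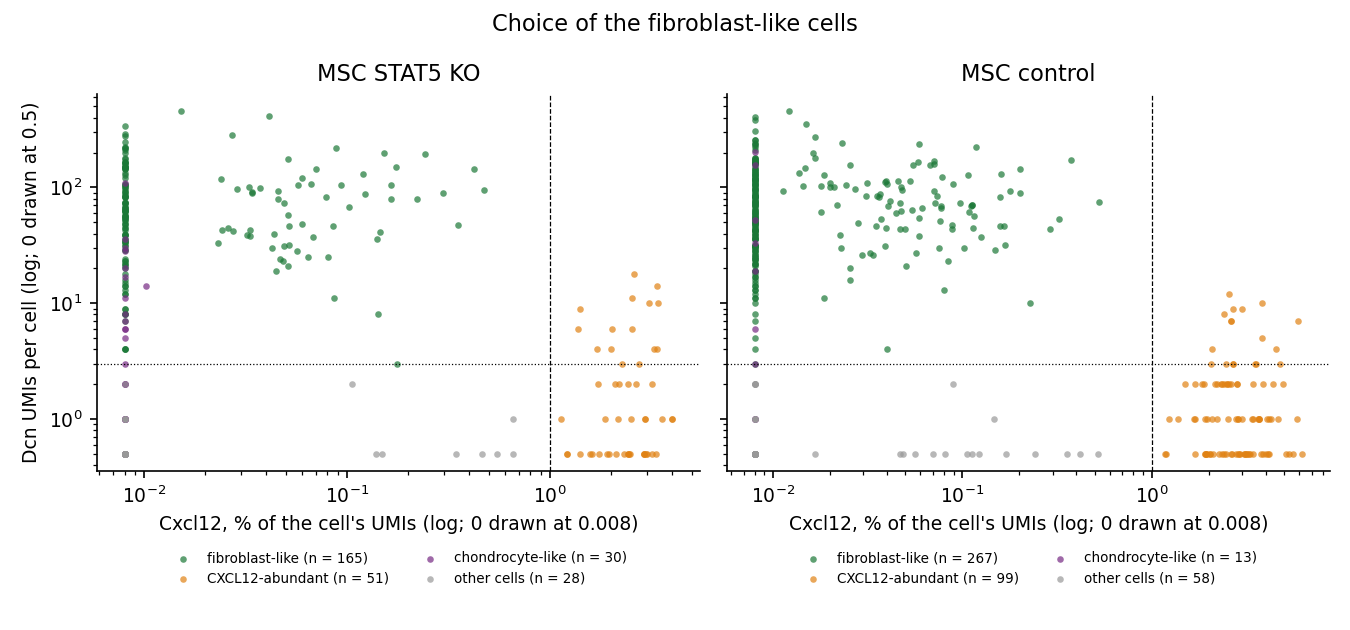
Dcn UMIs per cell against the share of Cxcl12 in the cell's UMIs, both on log axes, with 1 panel for each stromal library and 1 point for each cell; dashed and dotted lines mark 1% Cxcl12 and 3 Dcn UMIs. The fibroblast-like cells (165 and 267) lie at the upper left, and the CXCL12-abundant cells (51 and 99) lie at or above 1.13% Cxcl12.

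The markers of the label were present in both libraries. Pdgfra, which encodes the sorted surface protein CD140a, had a UMI in 88 of 165 STAT5 KO cells and 136 of 267 control cells, and its summed level was 393 and 361 CPM (UMIs of a gene divided by all UMIs and scaled to 1000000). Ly6a, which encodes the sorted protein Sca-1, had a UMI in 82 and 135 cells, at 865 and 1013 CPM. After thinning to 1700 UMIs, Pdgfra had a UMI in 39.3% of 145 and 36.3% of 248 cells, and Ly6a in 40.7% (32.6 to 49.2) and 48.0% (41.6 to 54.4). Of the barcodes of the same libraries with at least 10% hemoglobin, which should lack both genes, none of 93 in STAT5 KO and none of 121 in control had a Pdgfra or a Ly6a UMI. With 3 counts taken as an approximate limit where none was seen, shares of up to 3.23% and 2.48% are allowed. Those barcodes were shallower, with a median of 633 and 650 UMIs. Ptprc, which encodes CD45, had 0 UMIs in all 432 cells. Tfrc, which encodes CD71, had 11 and 18 UMIs.

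The most abundant transcripts were those of matrix and of general cell upkeep. Gsn (gelsolin, an actin-severing protein) stood at 21025 CPM in STAT5 KO and 22617 CPM in control, and Malat1, a nuclear noncoding RNA, at 42928 and 38976 CPM. Col1a1 and Col1a2, the 2 chains of type I collagen, stood at 9978 and 10836 CPM and at 8399 and 9088 CPM. Sparc, a collagen-binding matrix glycoprotein, stood at 6388 and 8181 CPM, and Comp, a cartilage and tendon matrix protein, at 4342 and 3043 CPM. These levels are UMIs of the transcripts' 3′ ends, which count each molecule once and were not divided by transcript length.

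Compared with the CXCL12-abundant cells of the same sort, the fibroblast-like cells had much more matrix and tendon transcript and very little of the reticular program. Among 1129 genes with enough UMIs in both classes, 177 (15.7%) were at least 2-fold higher and 137 (12.1%) at least 2-fold lower in the fibroblast-like cells in both libraries. Of the lists of genes by role, 9 of 16 measured collagens (interstitial, with Col4a1 and Col4a2 of basement membranes) were higher. So were 7 of 8 small leucine-rich proteoglycans, 7 of 7 adventitial fibroblast genes and 10 of 11 periosteum and tendon genes. None of these was lower. Of the reticular niche genes, 15 of 16 were lower and none was higher.

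Thbs4, a thrombospondin of tendon, stood at 3357 CPM in STAT5 KO and 3492 CPM in control fibroblast-like cells, and at 10.8 and 7.51 CPM in the CXCL12-abundant cells. Fmod (fibromodulin, a proteoglycan that shapes collagen fibrils) stood at 4784 and 4649 CPM against 16.1 and 25.0 CPM. Igfbp6, which binds insulin-like growth factors, stood at 3153 and 3638 CPM against 10.8 and 10.0 CPM. In each of these genes the 2 fibroblast-like values lay far above both CXCL12-abundant values. Tnxb, the tenascin linked to collagen and elastic fibres, stood at 925 and 916 CPM against 0 in both.

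In the other direction, Hp (haptoglobin) stood at 9.06 and 8.80 CPM in the fibroblast-like cells and at 5589 and 4824 CPM in the CXCL12-abundant cells. Kitl, which encodes stem cell factor, stood at 9.06 and 19.6 CPM against 1856 and 1692 CPM. Vcam1, an adhesion molecule for blood cells, stood at 34.4 and 34.2 CPM against 1813 and 1596 CPM. Lepr, the leptin receptor gene that marks reticular cells, was lower but present, at 165 and 132 CPM against 1549 and 1739 CPM, with a UMI in 49 of the 165 and 65 of the 267 fibroblast-like cells. Pdgfra did not separate the classes, at 301 and 345 CPM in the CXCL12-abundant cells, whereas Ly6a stood at only 10.8 and 7.51 CPM there although Sca-1 was part of the sort.

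**Figure D2:**
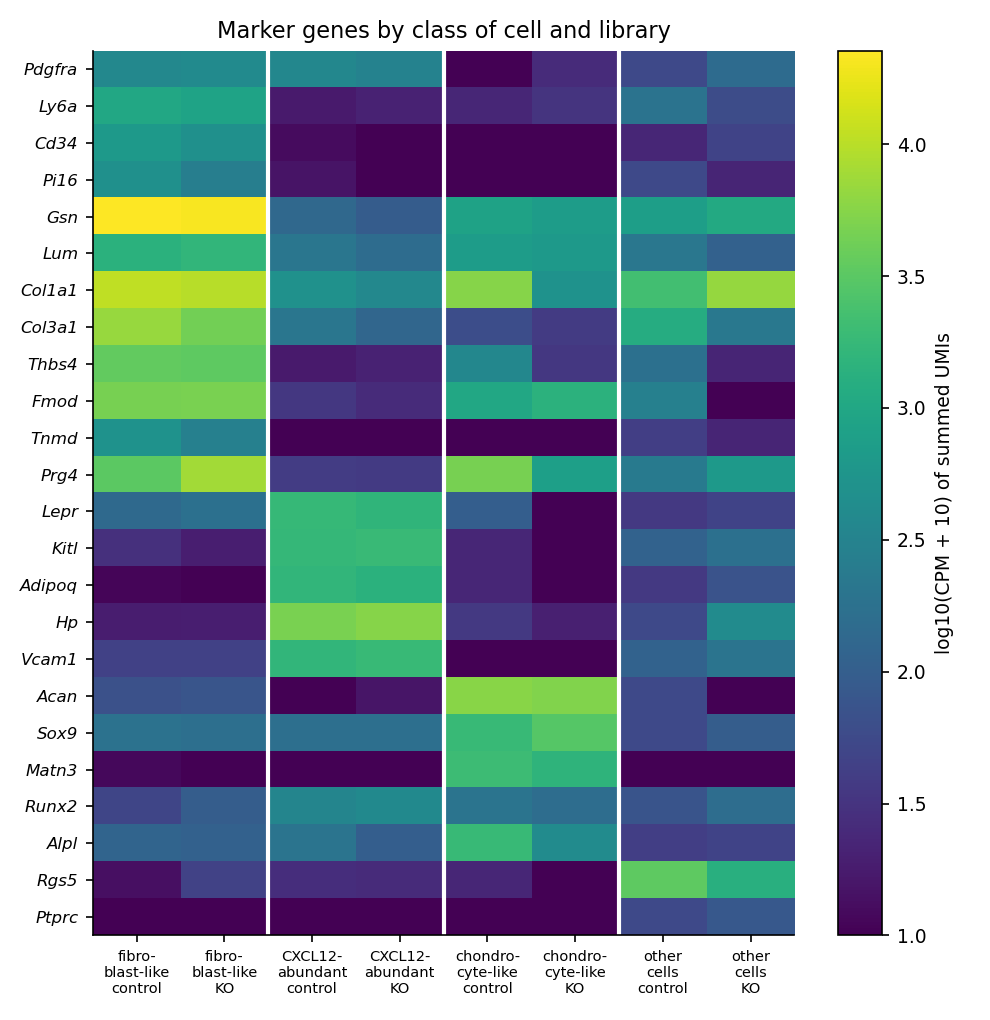
Heat map of log10(CPM + 10) for 24 marker genes (rows) in the summed UMIs of 4 classes of cell, with control and STAT5 KO side by side (columns). Gsn, Thbs4, Fmod and Ly6a are high in the fibroblast-like columns of both libraries, Kitl, Hp and Vcam1 are high in the CXCL12-abundant columns, and Pdgfra is at a similar level in both classes.

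Within the fibroblast-like cells the genes with the largest variance over their mean, in both libraries, were Prg4, Cytl1, Bglap, Col1a1, Gsn, Fmod, Ibsp, Col1a2, Clu and the noncoding Gm42418. Prg4 had a variance of 232 times its mean in STAT5 KO and 251 times in control, against a median of 2.0 in STAT5 KO and 1.99 in control over 768 genes. Single indicator genes, picked after earlier results of these data had been seen, were used to describe this variation. The cells with a UMI of an indicator were set beside the remaining chosen cells for description only.

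Cells with a UMI of Cd34, a surface sialomucin of progenitor-like fibroblasts, numbered 63 of 165 in STAT5 KO (38.2%, interval 30.7 to 46.1) and 144 of 267 in control (53.9%, 47.8 to 60.0). After each cell was thinned to 1700 UMIs, and shallower cells were left out, the shares were 55 of 145 (37.9%, 30.0 to 46.4) and 123 of 248 (49.6%, 43.2 to 56.0). None of 93 and 121 hemoglobin-rich barcodes had a Cd34 UMI. Several other adventitial genes, named here because they ranked among the highest beside Cd34, were far higher in the same cells. Pi16, a peptidase inhibitor that marks these fibroblasts, stood at 567 CPM in STAT5 KO and 763 CPM in control Cd34 cells and at 22.5 and 54.3 CPM in the rest, and Cd248 (endosialin) at 408 and 382 CPM against 25.7 and 7.09 CPM. Ly6a stood at 1738 and 1602 CPM in Cd34 cells against 192 and 180 CPM, and 57 of the 63 and 116 of the 144 Cd34 cells had a Ly6a UMI. Bglap, which encodes the bone matrix protein osteocalcin, is named because it ranked lowest beside Cd34. It was nearly confined to the rest, with 0 and 6.67 CPM in Cd34 cells against 773 and 678 CPM.

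Cells with a UMI of Tnmd (tenomodulin, a membrane protein of tendon and ligament cells) numbered 43 of 165 (26.1%, 19.5 to 33.5) and 80 of 267 (30.0%, 24.5 to 35.8). Several tendon genes, named here because they ranked highest beside Tnmd, were far higher in them. Fmod stood at 15714 and 14848 CPM in them against 1693 and 899 CPM in the rest, and Thbs4 at 10287 and 9992 CPM against 1398 and 1102 CPM. Kera (keratocan, a proteoglycan of ordered collagen) stood at 1316 and 1721 CPM against 160 and 49.5 CPM, and Scx (scleraxis, the tendon transcription factor) at 288 and 335 CPM against 51.2 and 33.4 CPM. Comp was less tied to them, with 694 of its 2395 UMIs in STAT5 KO and 1124 of 3112 in control. Angptl7, a secreted angiopoietin-like protein, had a UMI in 37 and 69 cells, and 21 of the 43 and 50 of the 80 Tnmd cells were among them. Of the Tnmd cells, 8 and 23 had a Cd34 UMI, so the Cd34 and Tnmd cells were largely separate sets.

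A smaller set had a UMI of Alpl, the bone-type alkaline phosphatase: 7 of 165 (4.24%, 1.72 to 8.55) and 17 of 267 (6.37%, 3.75 to 10.0). The genes given here ranked among the highest beside Alpl. Ibsp, which encodes bone sialoprotein, stood at 8592 and 4903 CPM in the Alpl cells and at 228 and 28.5 CPM in the rest. The 7 STAT5 KO cells include 1 cell that held 177 of the 404 Ibsp UMIs of that library's chosen cells. Bglap stood at 3094 and 3785 CPM against 266 and 10.5 CPM, and Pth1r, the parathyroid hormone receptor, at 871 and 539 CPM against 46.3 and 44.3 CPM. Summed over these few cells, bone-forming genes were therefore high, while each cell met the rule for Dcn.

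**Figure D3:**
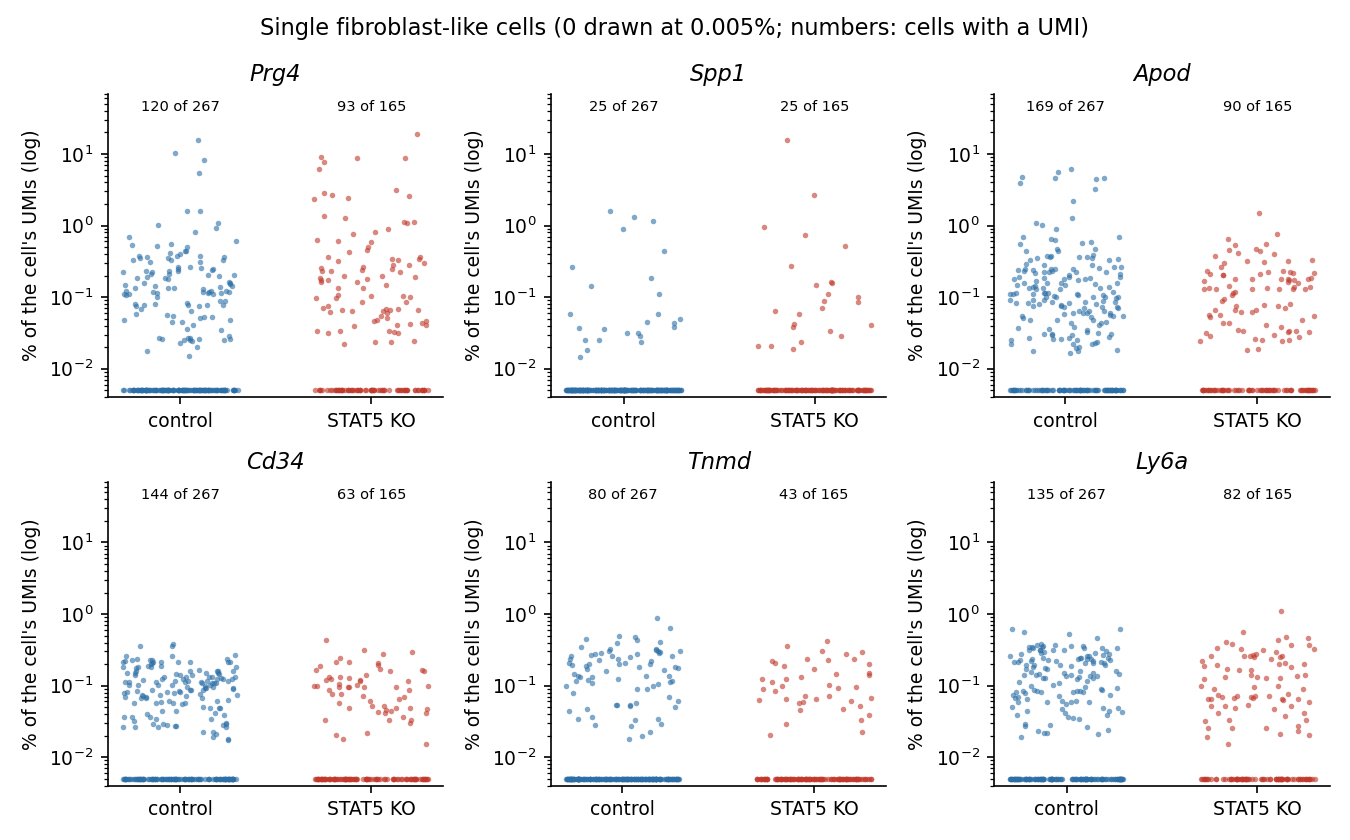
Share of 6 genes in the UMIs of each fibroblast-like cell (log axis, 0 drawn at 0.005%), 1 point for each cell, control at the left and STAT5 KO at the right, with the number of cells that have a UMI. Prg4 is above 1% in 17 STAT5 KO and 8 control cells, 1 STAT5 KO cell holds most of the Spp1, Apod is at or above 1% in 12 control cells and 1 STAT5 KO cell, and Cd34 has a UMI in 63 of 165 and 144 of 267 cells.

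The comparison of STAT5 KO with control asks whether stromal fibroblasts differ between marrow with and without STAT5 in blood cells. The Stat5a and Stat5b transcripts themselves were sparse in the fibroblast-like cells. Stat5a had 10 UMIs in STAT5 KO (18.1 CPM) and 24 in control (23.5 CPM), and Stat5b had 25 (45.3 CPM) and 45 (44.0 CPM). For the sum the log2 ratio was -0.09 (95% interval -0.72 to 0.52). A difference within that interval was not detectable at this depth. The 3′ ends counted here may lie outside the deleted part, so these counts do not check the genotype.

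Most genes stood at similar levels in the 2 libraries. Of 4705 genes with at least 50 UMIs, 25 (0.531%) were at least 2-fold higher in STAT5 KO and 30 (0.638%) at least 2-fold lower, and the median log2 ratio was -0.02. Over all these genes 2248 lay above 0 and 2457 below 0, which is the background for the counts of each list below. A log2 ratio here compares CPM plus 10, and the interval in brackets is the exact conditional binomial interval of the ratio without that addition. Single cells set a part of the list. In 2 of the 25 and 8 of the 30 genes, 1 cell held at least 50% of the UMIs of the higher library, and 21 and 20 genes were still past the 2-fold limit when each gene was computed without its top cell in each library. Of the lower genes, 4 were hemoglobin genes, whose UMIs came almost entirely from 1 control cell (3852 of 3959) in which hemoglobin took 43.6% of 8826 UMIs. Mia, Serpina1a, Serpina1d and 3110079O15Rik were also lower in STAT5 KO through 1 cell, the deepest control cell with 10915 UMIs, which held 93.1%, 99.3%, 98.9% and 83.8% of their control UMIs. The libraries also differed in the makeup of sexes: Xist, which is expressed from the inactive X chromosome, stood at 477 CPM in STAT5 KO and 260 CPM in control, 64 of 165 and 58 of 267 cells had Xist but no Y-linked UMI, and 43 and 87 had a Y-linked UMI but no Xist. The part of sex in the differences below was not tested.

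**Figure D4:**
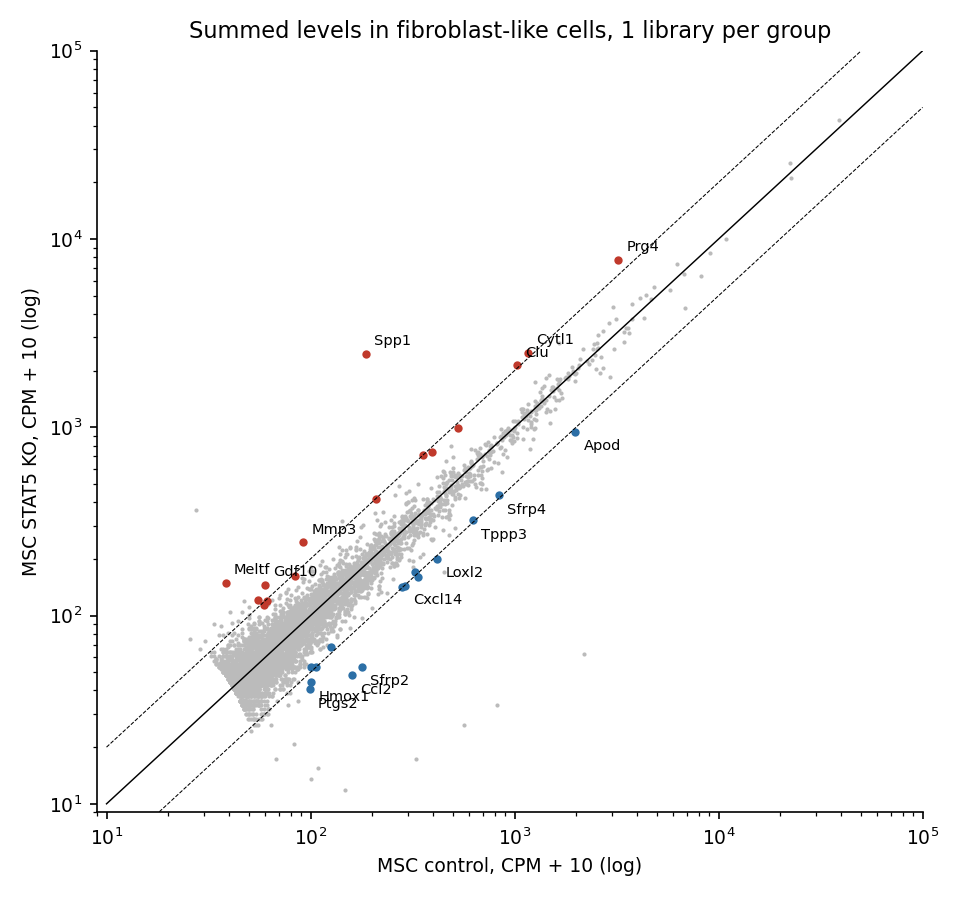
Summed level of each of 4705 genes in STAT5 KO (vertical) against control (horizontal) fibroblast-like cells, as CPM + 10 on log axes; the solid line is equality, the dashed lines are 2-fold, and coloured points are the 15 genes named as furthest higher (red) and the 15 named as furthest lower (blue), some of them labelled. Most points lie between the dashed lines, Spp1 and Prg4 lie above them, and Sfrp2, Ccl2 and Apod lie below; the unlabelled grey points far below are mostly hemoglobin genes and genes of 1 control cell.

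Prg4, which encodes lubricin, the lubricant of joint surfaces, was higher in STAT5 KO. It stood at 7761 CPM in STAT5 KO (4281 UMIs in 93 of 165 cells) and 3211 CPM in control (3283 UMIs in 120 of 267 cells), a log2 ratio of 1.27 (1.21 to 1.34). Much of the difference lay in how many cells had very high Prg4, while 72 of 165 and 147 of 267 cells had no Prg4 UMI. Cells in which Prg4 took at least 1% of UMIs numbered 17 of 165 (10.3%, 6.12 to 16) in STAT5 KO and 8 of 267 (3.0%, 1.30 to 5.82) in control. Among them 12 and 4 were at 2% or more. Without the cells at 1% or more, Prg4 stood at 992 CPM in STAT5 KO and 850.3 CPM in control, a log2 ratio of 0.22. Those cells were chosen by Prg4 itself, so the smaller ratio is partly set by the choice. Over cells with a Pdgfra or Ly6a UMI the log2 ratio was 3.03. That subset leaves out all 8 control Prg4-rich cells, which had no UMI of either gene. It keeps some of the 17 in STAT5 KO, of which 4 had a Ly6a UMI. The value of 3.03 therefore depends on which few Prg4-rich cells pass.

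Several genes, named here because they ranked among the highest or lowest beside Prg4, stood apart in the summed Prg4-rich cells of both libraries. Cytl1, a secreted cytokine-like protein of cartilage, stood at 18807 and 20054 CPM in the Prg4-rich cells, and at 0 and 468 CPM in the remaining cells. Such sums do not show that each cell carried the gene: 5 cells held 71.6% of the STAT5 KO and 79.8% of the control Cytl1 UMIs. Cilp, a matrix protein of the intermediate layer of cartilage, stood at 14449 and 14336 CPM in the Prg4-rich cells against 1038 and 1173 CPM in the rest. Clu (clusterin, an extracellular chaperone) stood at 10077 and 12077 CPM against 923 and 617 CPM, and Hapln1, which links hyaluronan to aggrecan, at 687 and 502 CPM against 14.6 and 44.6 CPM. Pi16, Col14a1 and Postn were at 0 in them in both libraries. A Ly6a UMI was present in 4 of the 17 and in none of the 8, which by the approximate limit of 3 counts allows a share of up to 37.5% among 8 cells.

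Several of the genes higher in STAT5 KO followed these cells. Cytl1 stood at 2480 CPM in STAT5 KO and 1155 CPM in control (log2 ratio 1.10), in only 12 and 16 cells. Meltf, a membrane-bound transferrin relative, stood at 140 and 28.4 CPM (log2 ratio 1.96, interval 1.67 to 2.97). Without the Prg4-rich cells the log2 ratios of Cytl1 and Meltf were -5.58 and -0.51, and that of Cpe, a peptide-processing enzyme, went from 1.00 to -0.01. Clu, at 2130 and 1019 CPM, kept a log2 ratio of 0.57 without them and had a UMI in 62 of 165 and 70 of 267 cells. Chondrocyte-like cells, which lie just outside the rule, were 30 of 274 in STAT5 KO and 13 of 437 in control, and among them Prg4 was at least 1% of UMIs in 2 and 3 cells. The rule genes of cartilage summed to 625 and 352 CPM in the fibroblast-like cells.

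Most of the Spp1 and Mmp13 difference, and part of that of other bone-forming genes, lay in 1 STAT5 KO cell. Spp1, which encodes osteopontin, stood at 2455 CPM in STAT5 KO and 176 CPM in control, with 25 cells carrying a UMI in each library. One STAT5 KO cell of 7183 UMIs held 1134 of the 1354 Spp1 UMIs, 143 of 196 UMIs of Mmp13 (a collagenase of bone and cartilage) and 177 of 404 of Ibsp. Without the top cell of each library the log2 ratio of Spp1 was 1.49 in place of 3.73, and over cells with a Pdgfra or Ly6a UMI it was 0.64. Without the top cells that of Mmp13 was 2.42 in place of 3.73, in 3 and 5 cells, and that of Ibsp was 0.47 in place of 0.92. Of 10 measured osteogenic genes 2 were past the 2-fold limit, both higher (Spp1 and Cadm1, an adhesion molecule), and the list's median log2 ratio of 0.61 became 0.39 without the top cells. Runx2, the transcription factor of bone cells, stood at 87.0 and 40.1 CPM (log2 ratio 0.95, interval 0.49 to 1.76), in 21 of 165 and 26 of 267 cells. Alpl stood at 101.5 and 111.5 CPM.

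Other genes were higher in STAT5 KO with and without the Prg4-rich cells. Fibin, a secreted protein first known from fin development, stood at 700 and 347 CPM (log2 ratio 0.99, interval 0.80 to 1.22), in 72 and 99 cells. Without the Prg4-rich cells its log2 ratio was 0.89. Among secreted signals, Gdf10 (a TGF-beta family ligand also called BMP3B) stood at 136 and 49.9 CPM and Bmp5, a bone morphogenetic protein, at 103 and 48.9 CPM. Their log2 ratios were 1.29 (0.91 to 1.99) and 0.94 (0.51 to 1.66), and without the Prg4-rich cells 1.27 and 0.94. Mmp3 (stromelysin 1, a matrix protease) stood at 236 and 82.2 CPM, in 20 and 11 cells, and 49 of its 84 control UMIs were in 1 cell. Of the 19 measured genes of the TGF-beta and BMP list 1 (Gdf10) was past the 2-fold limit, 15 lay above 0 and the median was 0.16. The log2 ratios of Lifr (leukemia inhibitory factor receptor) and Igfbp3 were 0.84 (0.43 to 1.43) and 0.80 (0.41 to 1.33), and 1 STAT5 KO cell held 20 of the 71 Lifr UMIs.

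On the other side, Apod (apolipoprotein D, a carrier of small lipids) stood at 937 CPM in STAT5 KO and 1976 CPM in control, a log2 ratio of -1.07 (-1.22 to -0.94). Apod was detected widely, in 90 of 165 and 169 of 267 cells. Much of the difference lay in a small set of control cells. Cells in which Apod took at least 1% of UMIs numbered 12 of 267 in control (4.49%, 2.34 to 7.72) and 1 of 165 in STAT5 KO (0.606%, 0.0153 to 3.33), and the 12 held 1103 of 2020 control UMIs. Without these cells Apod stood at 888 CPM in STAT5 KO and 923 CPM in control, a log2 ratio of -0.06. The cells were chosen by Apod itself, so the smaller difference is partly set by the choice.

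The 12 Apod-rich control cells were picked after their values had been seen and are described without a test. They had a median of 2121 UMIs, 10 of the 12 had a Cd34 UMI, and none was Prg4-rich. Lum (lumican, a proteoglycan of collagen fibrils) stood at 7076 CPM in them and 1190.2 CPM in the other control cells. They held 122 of 233 control UMIs of Gpc3 (glypican 3, a surface proteoglycan), 52 of 130 of Cp (ceruloplasmin) and 124 of 475 of Apoe. They also held 74 of 153 UMIs of Ccl2, the chemokine that draws monocytes, and 27 of 75 of its relative Ccl7. The Ccl2 UMIs in them were mostly from 1 cell, with 62.

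Most measured genes of the chemokine and cytokine list were lower in STAT5 KO. Of 8 measured genes of the chemokine and cytokine list, 3 were at least 2-fold lower, none was 2-fold higher and the median log2 ratio was -0.68. Of the 8, 7 lay below 0, against 2457 of all 4705 genes. Ccl2 stood at 38.1 CPM in STAT5 KO (21 UMIs in 10 cells) and 150 CPM in control (153 UMIs in 23 cells), a log2 ratio of -1.73 (-2.71 to -1.31). Ccl7 stood at 10.9 and 73.4 CPM, with 6 UMIs in 5 cells and 75 UMIs in 20 cells. Without the Apod-rich cells the log2 ratios were -0.89 for Ccl2, which is inside the 2-fold limit, -1.48 for Ccl7 and -0.46 for the list's median. Cxcl1, which draws neutrophils, stood at 459 and 718 CPM in 43 and 83 cells (log2 ratio -0.64, interval -0.86 to -0.44). Il6 was the 1 measured gene of the list above 0, at 54.4 and 28.4 CPM. Cxcl12, a gene outside this list, was kept under 1% of each cell's UMIs by the rule, so its level is only a description of the chosen cells. It stood at 548 CPM in STAT5 KO and 388 CPM in control cells with a Ly6a UMI. In cells with a Tnmd UMI it stood at 230 and 124 CPM, from 28 and 34 UMIs. Ptgs2, the inducible cyclooxygenase, stood at 30.8 and 89.0 CPM in 13 and 27 cells (log2 ratio -1.28), and Hmox1, the inducible heme oxygenase, at 34.4 and 90.0 CPM in 13 and 43 cells (log2 ratio -1.17). Of the 20 immediate early genes, which cell stress induces, 12 lay above 0, 1 was 2-fold lower and the list's median was 0.11, with Fos at 5031 and 4405 CPM.

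Cxcl14, a chemokine of skin and stromal fibroblasts, was lower in STAT5 KO, close to the 2-fold limit. It stood at 134 CPM in STAT5 KO and 281 CPM in control, a log2 ratio of -1.01 (-1.45 to -0.69), and had a UMI in 24 of 165 and 75 of 267 cells. Of the 74 STAT5 KO UMIs, 26 were in 1 cell. After thinning it had a UMI in 9.66% (5.38 to 15.7) of 145 and 23.8% (18.6 to 29.6) of 248 cells. Within cells with a Ly6a UMI the log2 ratio was -1.13, and within cells with a Tnmd UMI it was -1.77. Over cells with a Pdgfra or Ly6a UMI it was -0.80 and without the Prg4-rich cells -0.95, both inside the 2-fold limit, and over all alternatives it ranged from -1.47 to -0.77. The gene lies on chromosome 13, at 56288643 to 56296551 on the minus strand (GRCm38).

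The letters TTCNNNGAA, the palindrome that STAT dimers are known to bind (N is any base, and the palindrome reads the same on both strands), were searched in the 250 bases before the start of each named gene in RefSeq promoters of build GRCm38.p6. Of the 30 genes named as furthest higher or lower, 19 matched an entry. None of 10 matched higher genes and 1 of 9 matched lower genes, Cxcl14, held the letters, against 8.13% of all 27025 genes, counting any promoter of a gene, and 7.02% of all 32851 promoters of the same length. The promoter of Cxcl14 is shown because it is the 1 match. The capitals mark the 9 letters, which begin 191 bases before the gene start, and the window is chr13:56296552-56296801 on the minus strand, printed 5′ to 3′:
Cxcl14: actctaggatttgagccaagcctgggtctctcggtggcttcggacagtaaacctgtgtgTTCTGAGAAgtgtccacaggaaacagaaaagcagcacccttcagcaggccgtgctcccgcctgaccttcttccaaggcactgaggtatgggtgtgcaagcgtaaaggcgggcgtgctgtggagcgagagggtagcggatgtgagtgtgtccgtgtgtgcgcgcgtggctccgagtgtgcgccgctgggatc

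Genes of adventitial fibroblasts were lower in STAT5 KO by a small amount. Of 17 measured genes none was past the 2-fold limit, 15 lay below 0, and the median log2 ratio was -0.30, against -0.02 over all 4705 genes. Pi16 stood at 259 and 469 CPM (log2 ratio -0.83, interval -1.14 to -0.58), although it had a UMI in a similar share of cells, 31 of 165 and 45 of 267. Cd34 stood at 473 and 637 CPM (log2 ratio -0.42, -0.64 to -0.22) and Ly6a at 865 and 1013 CPM (log2 ratio -0.23, -0.39 to -0.07). Within the cells that had a Ly6a UMI (82 and 135), the median of the same 17 genes was -0.13, with 11 below 0, and Pi16 stood at 463 and 768 CPM. Over all 2794 genes measured in those cells, 1447 lay below 0 and the median was -0.02.

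Other genes of these cells were lower in the Ly6a cells as well. Uap1, an enzyme that makes the sugar donor for glycans and hyaluronan, stood at 150.5 and 325 CPM over all cells (log2 ratio -1.06, -1.47 to -0.76) and at 223 and 482 CPM in Ly6a cells, with a UMI in 42 of 165 and 124 of 267 cells. Has1, a hyaluronan synthase, stood at 160 and 315 CPM, and at 270 and 527 CPM in Ly6a cells. Tppp3, a tubulin-binding protein of tendon sheath and adventitial cells, stood at 312 and 615 CPM (log2 ratio -0.96, -1.23 to -0.73), and at 490 and 936 CPM in Ly6a cells. Uap1 and Tppp3 were spread over many cells, with no cell above 26 UMIs and 19 UMIs.

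Secreted inhibitors and ligands of WNT signalling did not move as a group. Of 9 measured genes 1 was 2-fold lower and 6 lay below 0. Sfrp2, a secreted frizzled-related protein, stood at 43.5 CPM in STAT5 KO (24 UMIs in 7 cells) and 168 CPM in control (172 UMIs in 20 cells), a log2 ratio of -1.74 (-2.63 to -1.33), the lowest of the 15 genes named as lower. Its relative Sfrp4 stood at 426 and 826 CPM in 32 and 53 cells (log2 ratio -0.94, -1.17 to -0.75). Dkk2, a WNT antagonist, lay on the other side at 170 and 91.0 CPM (log2 ratio 0.84). The Apod-rich control cells held none of the Sfrp2, Sfrp4, Has1 or Ptgs2 UMIs.

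The collagens, listed as interstitial but including Col4a1 and Col4a2 of basement membranes, were lower in STAT5 KO by a small amount. The small leucine-rich proteoglycans were not. None of 16 collagens was past the 2-fold limit, 14 lay below 0, and the median log2 ratio was -0.32. Col3a1, the chain of type III collagen of soft tissue, stood at 4302 and 6813 CPM (log2 ratio -0.66, -0.73 to -0.60) and was lower in cells with a Ly6a UMI (5861 and 8146 CPM) and in cells with a Tnmd UMI (3840 and 5456 CPM). Col5a3 stood at 185 and 306 CPM, Col4a1, of basement membranes, at 276 and 436 CPM, and Col6a3, of microfibrils, at 489 and 685 CPM. Col1a1 was close in both libraries at 9978 and 10836 CPM, but 1 STAT5 KO cell held 1208 of 5504 UMIs, and without the top cells its log2 ratio was -0.37 in place of -0.12. Col14a1, which decorates fibrils, was the highest of the list at 448 and 292 CPM (log2 ratio 0.60, 0.37 to 0.86).

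Of 11 proteoglycans, 9 lay above 0 and the median was 0.16; without Dcn, which the rule used, 8 of 10 lay above 0 and the median was 0.13. Prelp stood at 1722 and 1245 CPM (log2 ratio 0.46, 0.35 to 0.59) and Lum at 1601 and 1359 CPM (log2 ratio 0.23), while Aspn (asporin) stood at 758 and 1179 CPM (log2 ratio -0.63, -0.80 to -0.48). Dcn stood at 25256 and 22323 CPM. Of 18 collagen-processing genes 1 was 2-fold lower, Loxl2, a lysyl oxidase that crosslinks collagen, at 190 and 406 CPM. One control cell held 162 of its 415 UMIs, and without the top cells its log2 ratio was -0.46. Loxl1, another of the family, stood at 170 and 306 CPM (log2 ratio -0.81, -1.19 to -0.51).

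Tendon and periosteum genes went in both directions. Of 15 measured, 2 were 2-fold higher (Prg4 and Clu), none was 2-fold lower, and 7 lay above and 8 below 0. The median log2 ratio was -0.13, but the list's summed level was higher in STAT5 KO (22909 and 15952 CPM), most of the excess being Prg4. Tnmd stood at 283 and 499 CPM (log2 ratio -0.80, -1.09 to -0.56), in 43 of 165 and 80 of 267 cells. Over cells with a Pdgfra or Ly6a UMI its log2 ratio was -0.13. Postn (periostin, a matrix protein of periosteum) stood at 196 and 335 CPM in 20 and 52 cells, while Fmod and Thbs4, which belong to other lists, differed little between the libraries (log2 ratios 0.04 and -0.06).

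Of 9 measured genes of the STAT5 pathway none was past the 2-fold limit and the median was 0.03. Socs3, a feedback inhibitor of cytokine signalling, stood at 689 and 490 CPM (log2 ratio 0.48), Socs2, a known STAT5 target, at 36.3 and 47.9 CPM (log2 ratio -0.32, -1.23 to 0.37), and Igf1 at 323 and 454 CPM (log2 ratio -0.48, -0.75 to -0.24). Of 8 complement genes none was past the limit, and C3 stood at 1235 and 1092 CPM. Of 12 heat-shock genes none was past it, 11 lay below 0 and the median was -0.21, and Hspa8 stood at 1242 and 1563 CPM. Of 10 interferon-stimulated genes none was past it, with Ifi27l2a the highest at 109 and 50.9 CPM. Of 16 fibroblast transcription factors none was past it and the median was 0.01. Of 7 adipogenic and lipid genes 6 lay below 0 and the median was -0.43, which was -0.06 without the Apod-rich cells. The 2 that were 2-fold lower were Apod and Angptl4, an inhibitor of lipoprotein lipase, at 16.3 and 53.8 CPM. Lpl, the lipase, stood at 246.5 and 387 CPM.

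The lists not described so far held few genes past the limit. Of 28 matrix glycoproteins 1 was 2-fold higher (Smoc1, which followed the Prg4-rich cells) and the median was -0.10, and of 18 matrix proteases and inhibitors 2 were higher (Mmp3 and Mmp13) with a median of -0.03. Of 11 measured reticular niche genes 1 was 2-fold lower, which was Cxcl14, and the median was 0.06. Of 9 metallothionein and oxidative stress genes 1 was 2-fold lower, which was Hmox1, and 8 lay below 0, with a median of -0.29. None of 9 genes of the IGF system and none of 8 genes of other STATs and gp130 receptors was past the limit, and of 5 measured cartilage genes 1 (Cytl1) was.

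Several of the genes named for size belong to no list. Gtf3c2, a subunit of a factor for RNA polymerase III, stood at 111 and 45.0 CPM (log2 ratio 1.13), but 1 STAT5 KO cell held 21 UMIs and the log2 ratio without the top cells was 0.66. Crim1, a membrane protein that binds BMPs, stood at 152 and 74.3 CPM (log2 ratio 0.94) and lay at 0.09 without the Prg4-rich cells. Among the lower genes, Rwdd1 stood at 58.0 and 116 CPM in 26 and 88 cells (log2 ratio -0.89, -1.62 to -0.43), and Agpat4, an acyltransferase of phospholipid synthesis, at 43.5 and 90.0 CPM in 22 and 67 cells (log2 ratio -0.90, -1.76 to -0.39). No cell held more than 4 UMIs of either gene. Ccnb1ip1 and the noncoding Bc1 had log2 ratios of -0.99 and -0.98.

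**Figure D5:**
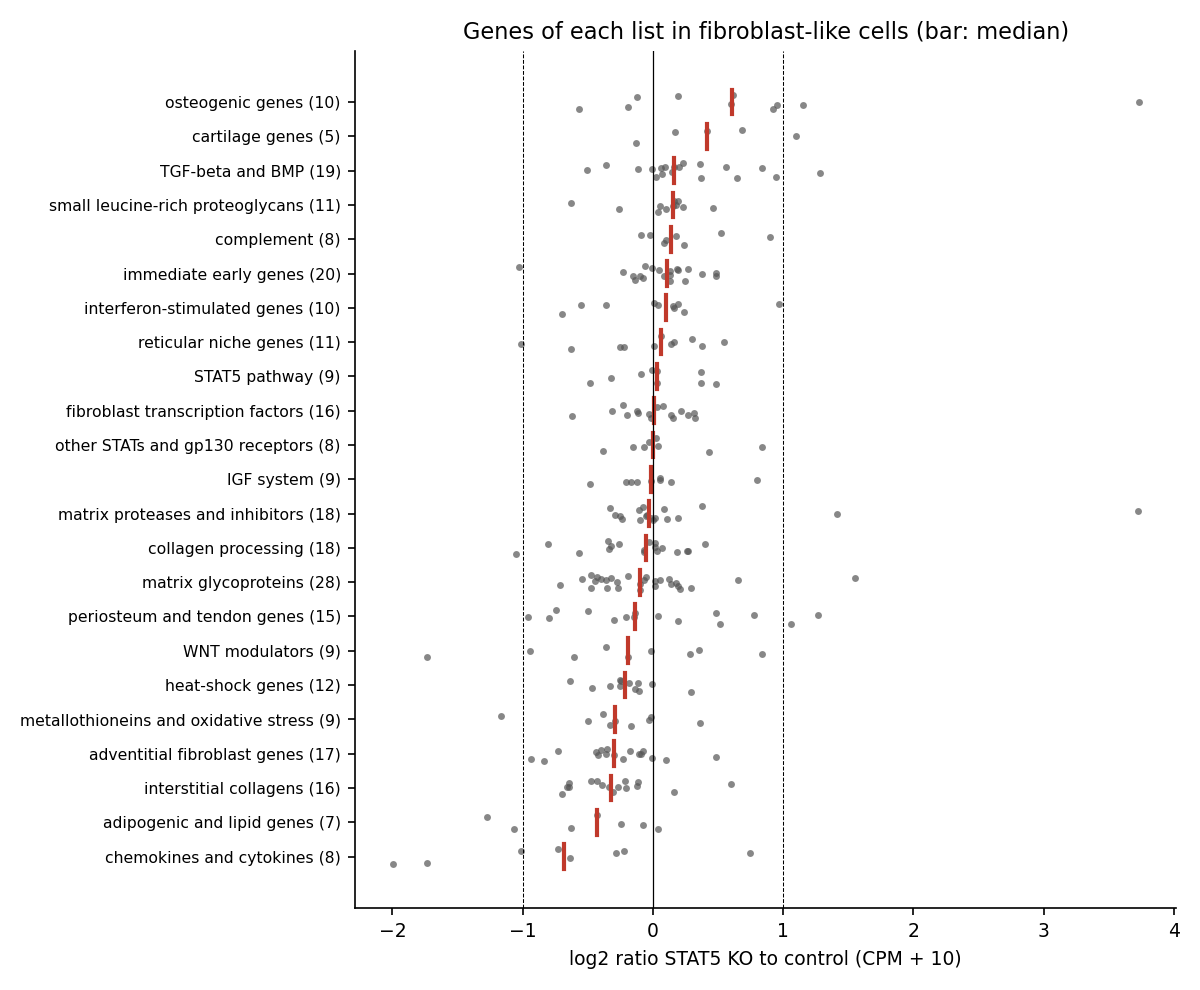
Log2 ratio of STAT5 KO to control (CPM + 10) for each measured gene of 23 lists in fibroblast-like cells, with the number measured in brackets; grey points are genes, red bars are list medians and dashed lines are 2-fold. The chemokine list has the lowest median (-0.68) and the osteogenic list the highest (0.61), collagens and adventitial genes lie mostly below 0, and Spp1 and Mmp13 are the 2 points near 3.73.

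Markers of other cells were few in both libraries. Summed over the 11 myeloid markers the level was 10.9 CPM in STAT5 KO and 11.7 CPM in control, and over the 8 lymphoid markers 0 and 1.96 CPM, with Tyrobp at 0 in both. The endothelial markers summed to 54.4 and 30.3 CPM with Emcn and Cldn5 at 0, the pericyte and smooth muscle markers to 216 and 168 CPM with Myh11 at 0, the Schwann cell markers to 94.3 and 43.0 CPM, and the skeletal muscle markers to 16.3 and 6.85 CPM. The Schwann and endothelial sums were thus higher in STAT5 KO, but each leaned on 1 gene. S100b was the only measured Schwann gene. It stood at 206 CPM in STAT5 KO and 363 CPM in control Prg4-rich cells, against 48.0 and 19.3 CPM in the rest. Plvap held 18 of 30 endothelial UMIs in STAT5 KO and 13 of 31 in control. It stood at 192 and 27.9 CPM in Prg4-rich cells against 8.35 and 12.2 CPM. The part of Schwann or endothelial cells in the results above was not tested. Hemoglobin summed to 99.7 and 3872 CPM, the latter through the 1 control cell.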

How the data were processed

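The authors deposited raw UMI counts per gene and barcode, with no normalization. The submitters' processing notes name Cell Ranger, and the file headers give software version 3.1.0. The strand rule is not given in the sources used here, so overlapping and antisense genes cannot be told apart. Barcodes needed 500 genes or more and no more than 10% mitochondrial UMIs, and those with more UMIs in the other stromal library were dropped (2 and 13). UMIs were then summed over the chosen cells of each library, and CPM was taken over all genes. A gene was past 2-fold at a log2 ratio of 1 or -1 with a pseudocount of 10 CPM, over genes with at least 50 UMIs. With 1 library a group there is no test. Sums carry exact Poisson, shares exact Clopper-Pearson and ratios exact conditional binomial 95% intervals. Where no cell had a UMI, the limit given for the share is 3 counts over the number of cells, an approximation.

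The named genes are the 15 furthest higher and lower (at least 100 UMIs, and detected in 5% or more of the higher library's cells), the 15 of highest CPM, the 12 furthest above and below CXCL12-abundant cells, the 10 most variable, and members of 32 lists. Hemoglobin, immunoglobulin, mitochondrial and Y-linked genes, Xist and the rule genes were left out of rankings. The cells and lists were chosen with earlier results of these data known, and the Apod-rich cells and genes of single cells after their values were seen. Doublets were not removed, and Scrublet (scanpy 1.11.5) served an alternative. The 23 alternatives covered cell filters, the rule, shared barcodes, scaling (edgeR 4.0.16 factors included), pseudocount, UMI minimums and left-out cells. The computation was tested on simulated data (Python 3.11.15, R 4.3.3). Coordinates are from GENCODE M21 on GRCm38. Stem-cell libraries served only to count shared barcodes and Dcn. One gene that met the naming rule is not reported here.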

Additional observations from a re-analysis of the deposited data

Results flagged for a closer look

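Decorin, by which the fibroblast-like cells were chosen, also appeared in the stem-cell libraries, which the comparisons do not use. At least 3 Dcn UMIs were present in 166 barcodes of the STAT5 KO stem-cell library and in 224 of the control stem-cell library. Of these, 156 and 214 carried the barcode of a fibroblast-like cell of a stromal library, and 164 and 224 had more UMIs in a stromal library. They had a median of 646.5 and 695 UMIs, against 9777 and 13807 over all cells of those libraries.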

How the results depend on the processing

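No paired analysis was possible because each group has 1 library. Results were recomputed under up to 23 settings, of which 3 (without each gene's top cell, without Prg4-rich cells and without Apod-rich cells) were added after seeing the data. The share of fibroblast-like cells in STAT5 KO was 66.4% when every barcode present in both stromal libraries was dropped. The counts of genes 2-fold higher and lower were 46 and 64 with a pseudocount of 1 CPM, 62 and 73 at a minimum of 20 UMIs, and 10 and 15 at a minimum of 100 UMIs. The other counts were within 1.5 times of 25 and 30, but the genes behind them changed more. Over cells with a Pdgfra or Ly6a UMI, where 3469 genes were measured, 13 of the 25 and 16 of the 30 were still past the limit. Without Prg4-rich cells 13 and 23 were. Among ratios past the 2-fold limit, for the genes followed through the settings, 8 values changed sign. Hba-a1 and Hbb-bs were 0.0824 and 0.0769 without cells of at least 1% hemoglobin. They were 0.0330 and 0.0063 without the 5 deepest cells of each library. Col2a1, Cytl1, Meltf and Smoc1 were -0.19, -5.58, -0.51 and -0.0592 without Prg4-rich cells. Of the other genes 2-fold lower, 3110079O15Rik and Serpina1d also changed sign, to 0.43 and 0.11 without each gene's top cell. Medians of the collagen, adventitial and chemokine lists were below 0 in all 23 settings, at -0.38 to -0.27, -0.36 to -0.17 and -0.78 to -0.46; that of the cartilage list was -1.08 without Prg4-rich cells, in place of 0.41. With 165 and 267 cells of a median of 3230 and 3701 UMIs, genes under 50 UMIs in all were not compared.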
